A study of Drosophila melanogaster with 2 samples.

Results

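Hr4 (FBgn0264562) is a nuclear receptor gene on the X chromosome of Drosophila melanogaster, at chrX:1941940-2007956 on the plus strand of the dm6 assembly, 66017 bp long. The locus described here is the gene body with the 1 kb before its most upstream start. Its 24 peaks were chosen by the authors' peak calls: they are every peak of the conservative thresholded list whose summit lies in that stretch, out of 7676 in all. Overlapping peaks were merged where they met, which left 22 separate regions. Presence, number and signal of the peaks are therefore descriptions of what was selected, and none of them was tested.

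Chromatin immunoprecipitation with sequencing (ChIP-seq) was done on whole pupae of 2 days that carried a transgene for CG32121 joined to enhanced green fluorescent protein (eGFP), precipitated with an antibody against GFP. (The antibody field of the labels names CG32121.) There was 1 group, CG32121-eGFP pupae, with 2 biological replicates from the same donor strain. No untagged animal and no input was analysed here, and sex was not collected. A whole pupa mixes every tissue, so a peak cannot be assigned to a cell type, and fewer cells with a bound site and less binding per cell cannot be told apart.

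Nuclear receptors are transcription factors whose activity can be switched by small lipophilic ligands. The steroid ecdysone drives molting and metamorphosis in insects through the receptor pair EcR and usp, which switches on a cascade of further transcription factors, several of them nuclear receptors themselves. Hr4 (also DHR4) is one of these ecdysone-induced receptors, an orphan with no settled ligand and a relative of the vertebrate germ cell nuclear factor. In the fly it takes part in shutting down the earliest ecdysone-induced genes at the onset of metamorphosis, in full expression of ftz-f1, and in limiting ecdysone production in the larval prothoracic gland.

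The 9 annotated Hr4 transcripts use 2 start sites (Ensembl release 115). The upstream start at position 1941940 serves 7 transcripts (Hr4-RC, RD, RG, RH, RI, RJ and RK), and the inner start at position 1992300 serves the other 2 (RE and RF). Introns are numbered here along Hr4-RH. A large coding exon that every transcript shares begins at position 1997582, and all 24 summits lie before it. The first summit is at position 1941926 and the last at 1995938, a stretch of 54012 bp. The 24 summits precede the first coding base of RC, RH and RI, 23 of them precede it in RJ, RK, RE and RF, and 21 in RD. In RG, whose coding sequence starts in its second exon, 1 summit precedes it and 23 follow.

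The sequences below are 101 bases centred on the summit of a peak (plus strand, RefSeq Release 6 sequence of the fly genome, the same build as dm6). The first set shows the 6 peaks of highest signal. Capitals mark matches, on either strand, to the words searched, which are listed after the sequences. All 6 lie in introns.
Peak 2, chrX:1947683-1947783: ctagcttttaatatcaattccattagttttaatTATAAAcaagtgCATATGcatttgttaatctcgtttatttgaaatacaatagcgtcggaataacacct
Peak 3, chrX:1948697-1948797: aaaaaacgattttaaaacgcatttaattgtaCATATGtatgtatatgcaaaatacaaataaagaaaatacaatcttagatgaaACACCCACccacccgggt
Peak 4, chrX:1951859-1951959: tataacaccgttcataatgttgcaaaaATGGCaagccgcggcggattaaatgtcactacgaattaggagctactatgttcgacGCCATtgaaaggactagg
Peak 5, chrX:1963887-1963987: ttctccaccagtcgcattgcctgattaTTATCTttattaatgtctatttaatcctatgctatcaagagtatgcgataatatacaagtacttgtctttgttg
Peak 8, chrX:1969060-1969160: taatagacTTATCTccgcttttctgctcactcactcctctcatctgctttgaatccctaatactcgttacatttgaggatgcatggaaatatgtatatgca
Peak 21, chrX:1988837-1988937: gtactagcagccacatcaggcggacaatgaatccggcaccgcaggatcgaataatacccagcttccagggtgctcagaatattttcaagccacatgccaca

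A second set shows 4 weaker peaks that carry words of interest: peak 6 with the half-site of nuclear receptors, peak 10 with the repeat bound by GAGA factor, and peaks 9 and 17 with words shared with the strong peaks 2 and 3.
Peak 6, chrX:1965062-1965162: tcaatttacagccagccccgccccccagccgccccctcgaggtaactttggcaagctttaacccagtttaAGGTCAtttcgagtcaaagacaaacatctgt
Peak 9, chrX:1969937-1970037: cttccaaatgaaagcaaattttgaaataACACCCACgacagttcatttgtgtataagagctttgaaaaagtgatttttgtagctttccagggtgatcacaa
Peak 10, chrX:1970620-1970720: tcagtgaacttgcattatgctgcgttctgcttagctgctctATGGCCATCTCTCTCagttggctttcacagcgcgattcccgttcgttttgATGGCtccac
Peak 17, chrX:1979208-1979308: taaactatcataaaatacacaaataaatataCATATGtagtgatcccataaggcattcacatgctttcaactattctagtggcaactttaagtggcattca

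The 100 bases just before each Hr4 start site hold none of the words. Both stretches lie inside the peaks at those starts but are not centred on a summit. Lacking the words does not set these stretches apart. Within 50 bp of the summit, only 11 of the 24 Hr4 peaks held any of the 10 listed words, against 48.8% of all peaks.
Upstream start, chrX:1941840-1941939: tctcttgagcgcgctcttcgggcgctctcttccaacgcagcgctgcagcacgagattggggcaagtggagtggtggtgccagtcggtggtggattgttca
Inner start, chrX:1992200-1992299: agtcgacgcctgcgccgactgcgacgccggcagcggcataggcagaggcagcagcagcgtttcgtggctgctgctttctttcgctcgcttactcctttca

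A list of 10 words was searched within 50 bp of each summit on both strands, and 11 of the 24 Hr4 summits held at least 1 of them, against 48.8% of all 7676 peaks. GCCAT, the core of the site for the Polycomb recruiter pho, was found at 7 Hr4 summits (peaks 4, 10, 13, 14, 15, 19 and 24), against 13.9% of all peaks. Peaks 5 and 8 held the word read by GATA factors, here searched as AGATAA, against 6.85% of all peaks. The nuclear receptor half-site, AGGTCA, was present at peak 6 alone, against 1.75% of all peaks. The GAGA-factor word, GAGAGAG, was present at peak 10 alone, against 3.27% of all peaks. In the run of capitals of that peak, 2 matches to GCCAT overlap each other and adjoin the repeat. Peak 13 held CACACAC, against 4.78% of all peaks. Peak 2 held the TATA-box word TATAAA, against 17.7% of all peaks. Peak 14 held the E-box CAGCTG, against 3.95% of all peaks.

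The remaining 3 words of the list were at 0 Hr4 summits. The DREF word TATCGATA was present at 0.638% of all peaks. The Zelda word CAGGTA was present at 1.49% of all peaks. The word ACAGTG was present at 6.20% of all peaks.

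Another pair of words was picked after the Hr4 sequences had been read, so their counts are selected. CATATG, an E-box form, stood at peaks 2, 3 and 17, against 3.30% of all peaks. ACACCCAC stood at peaks 3, 9 and 11, against 0.534% of all peaks. A match is a run of letters in these windows and does not mark a bound site.

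By place, 2 of the 24 Hr4 peaks (8.33%) had their summit within 500 bp of an Hr4 start, against 37.7% of all peaks with a summit that close to a protein-coding start. The other 22 (91.7%) were intronic, against 44.3% of all peaks. For a gene with long introns these shares follow in part from how the locus was drawn, since every summit in its introns was taken. Places were assigned in the same order for all peaks, promoter first.

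Peak 1, at the upstream start, had its summit 14 bp before that start. The peak signal, the authors' own value for each peak on a scale that the sources used here leave unstated, was 112 in the conservative list, rank 4321 of 7676. Replicate 1 read 45.9 and replicate 2 read 68.0, each being the signal of the nearest summit within 200 bp in that replicate's own ranked list. Peak 1 overlapped a peak of replicate 2's own thresholded list and none of replicate 1's.

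Peak 23, at the inner start, had its summit 36 bp before that start, in intron 6 of the 7 long transcripts. Its signal was 95.8 (rank 5259), with 29.0 in replicate 1 and 53.8 in replicate 2. It overlapped a peak in neither replicate's own thresholded list. Both promoter peaks thus ranked below the median of all peaks, and intronic peaks of the same gene reached several times their signal. Peak 22, 932 bp before the inner start and outside the promoter window, was alike in signal at 98.0, with 38.2 in replicate 1 and 54.1 in replicate 2.

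**Figure D1:**
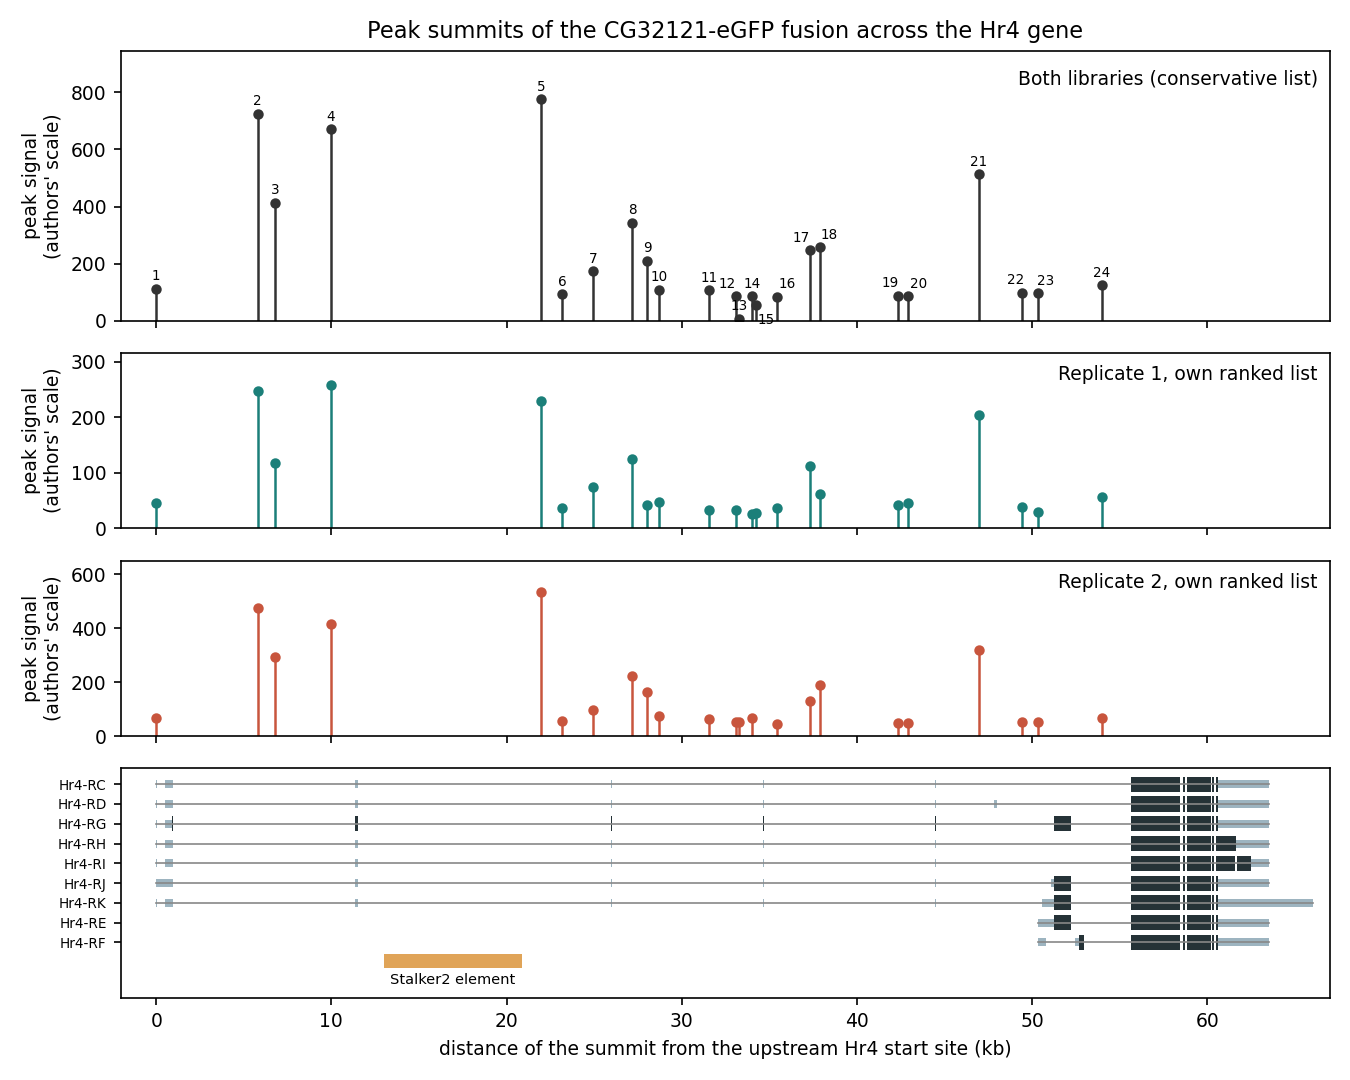
Peak signal (vertical axes, authors' scale, each list on its own) against distance from the upstream Hr4 start site (kb), for the conservative list of both libraries, replicate 1 and replicate 2, with the 9 Hr4 transcripts below (dark boxes coding, pale boxes other exons) and the Stalker2 element in orange. Numbers name the 24 peaks; the tallest are peaks 5, 2, 4 and 21, all intronic, and no peak stands over the shared coding exons at the right.

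Intron 2, 10387 bp between the second and the third exon, held 3 peaks, all strong. Peak 2 had a signal of 725 (rank 152), with 247 in replicate 1 and 476 in replicate 2. Peak 3 had 413 (rank 518), with 117 in replicate 1 and 292 in replicate 2. Peak 4 had 669.9 (rank 181), with 259 in replicate 1 and 416 in replicate 2. All 3 overlapped a peak in both replicates' own thresholded lists, and peak 4 was the highest Hr4 peak in replicate 1. The median signal of the intron's peaks, 669.9, was the highest of any Hr4 intron.

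The longest intron, intron 3 with 14429 bp, held the strongest peak of the locus. Peak 5, 21997 bp from the upstream start, had a signal of 775 (rank 129), with 229 in replicate 1 and 533 in replicate 2, the highest Hr4 value in replicate 2. Close by, peak 6 had 93.6, with 37.0 in replicate 1 and 54.5 in replicate 2, and overlapped a peak in neither own list. Peak 7 had 174, with 74.5 in replicate 1 and 97.5 in replicate 2. The widest gap between neighbouring Hr4 summits, 12028 bp, runs from peak 4 to peak 5. Within that gap lie the pseudogene CR46447 and a transposable element of the Stalker2 family, at chrX:1954941-1962823, 7883 bp long. The element held 0 peaks and 0 of the candidate peaks that missed the threshold. The sources used here do not say how reads from repeated sequence were treated, and its part in the gap was not tested.

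Intron 4, 8582 bp, was the most densely occupied, with 8 peaks in 6 regions, or 6.99 regions per 10 kb. Its strongest was peak 8, with a signal of 344 (rank 713), and 126 in replicate 1 and 222 in replicate 2. Peak 9 had 211, with 41.8 in replicate 1 and 165 in replicate 2, a ratio of replicate 2 to replicate 1 of 3.95 and the highest in the locus. Peak 10 had 109, with 47.0 in replicate 1 and 76.1 in replicate 2. Peak 11 was close to it in the conservative list at 106, with 32.3 in replicate 1 and 62.1 in replicate 2.

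The last 4 peaks of intron 4 form 2 overlapping pairs and are among the weakest of the locus. Peak 12 had 85.5, with 32.7 in replicate 1 and 52.8 in replicate 2. Its neighbour, peak 13, 199 bp away, had the lowest signal of the locus at 6.89 (rank 7533), with no replicate 1 summit within 200 bp and the same replicate 2 summit as peak 12. The deposited −log10 q value of peak 13 was 0.08, against 1.96 for peak 12. Peak 14 had 85.8, with 26.7 in replicate 1 and 67.2 in replicate 2. Peak 15, 216 bp further, had 55.6, with 26.9 in replicate 1 and no replicate 2 summit within 200 bp, although the peak itself overlapped one.

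Intron 5, 9777 bp, held 5 peaks. A close pair, 601 bp apart, led it. Peak 17 had a signal of 248, with 112 in replicate 1 and 131 in replicate 2. Peak 18 had 257, with 61.2 in replicate 1 and 189.9 in replicate 2. The pair was thus near level in the conservative list while the replicates differed: the ratio of replicate 2 to replicate 1 was 1.17 at peak 17 and 3.10 at peak 18. Peak 16 had 84.3, with 37.5 in replicate 1 and 44.3 in replicate 2. Peak 19 had 87.5, with 41.9 in replicate 1 and 48.1 in replicate 2. Peak 20 had 85.6, with 46.6 in replicate 1 and 49.8 in replicate 2, the lowest ratio of the locus at 1.07.

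Intron 6, 11126 bp, contains the inner start and held 4 peaks. The strongest was peak 21, 3413 bp before the inner start, with a signal of 514 (rank 327), and 204 in replicate 1 and 320.2 in replicate 2. Peak 24 lay 3638 bp after the inner start, in an intron of all 9 transcripts, with 125, and 56.3 in replicate 1 and 66.4 in replicate 2. It is the 1 Hr4 summit that RE and RF carry within their own span, in intron 1 of RE and intron 2 of RF.

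From the shared coding exon to the end of the gene, 10375 bp, the conservative list held 0 peaks. Candidate peaks were present there: 18 of them missed the threshold, with signals up to 64.5 and irreproducible discovery rates (IDR) of 0.0274 or above. The global IDR of a peak is the expected share of irreproducible calls among peaks that agree at least as well between 2 ranked lists. The conservative list stops at 0.01. Over the whole locus 64 candidates were left out, with signals of 2.19 to 92.4. Just inside the limit was peak 14 with an IDR of 0.00711, and just outside was a candidate in intron 4 at position 1971928 with an IDR of 0.0105 and a signal of 63.5.

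The nearest peaks outside the locus belong to starts of other genes. One, 1776 bp before the upstream Hr4 start, lies 124 bp from the start of CG3857 and 143 bp from that of CG3587, with a signal of 96.9. CG3587 ends 404 bp before Hr4 begins, so its body reaches into the 1 kb taken as upstream, while its peak does not. The other, 1564 bp past the end of Hr4, lies 156 bp from the start of PIG-K, a gene for a subunit of the enzyme that attaches glycolipid anchors to proteins, with a signal of 97.2. PIG-K runs on the opposite strand and its last bases overlap the end of Hr4. The next gene, east, which encodes a nuclear scaffold protein, had 1 region with a signal of 77.6.

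The 22 Hr4 peaks with a summit in both replicates' ranked lists ran from 26.7 through a median of 46.8 to 259 in replicate 1, and from 44.3 through a median of 72.1 to 533 in replicate 2. Replicate 2 read higher at all 22, as at 7038 of the 7322 matched peaks of the whole list. The median ratio of replicate 2 to replicate 1 was 1.61, against 1.72 over the 7322 (quartiles 1.41 and 2.07). The lists are on their own scales, so this ratio does not measure binding. Ranks of the Hr4 peaks ran alike in the replicates (Spearman's rho 0.80 and Pearson's r of log2 signals 0.91 over 22 peaks), against 0.78 and 0.88 over all 7322. These correlations are across peaks from 1 pair of libraries, and IDR selects for agreement, so they are descriptions.

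Of the 24 Hr4 peaks, 17 (70.8%) overlapped a peak of replicate 1's own thresholded list, against 55.1% of all peaks. In replicate 2's own list 16 (66.7%) did, against 77.5% of all peaks. Both lists were overlapped by 14 Hr4 peaks, against 50.6% of all peaks, and neither by 5 (peaks 6, 12, 13, 22 and 23; 20.8%), against 17.99% of all peaks. The 14 had a median signal of 252 and the 5 a median of 93.6. Peaks 1 and 11 were in replicate 2's list only, and peaks 16, 20 and 24 in replicate 1's only. Eip74EF, with the same number of peaks, had 14 of 24 in replicate 1's list and 20 in replicate 2's. Hr4 thus had 1 more peak in replicate 1's list than in replicate 2's, and Eip74EF had more in replicate 2's. Whether this difference between the loci exceeds the spread between libraries was not tested.

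**Figure D2:**
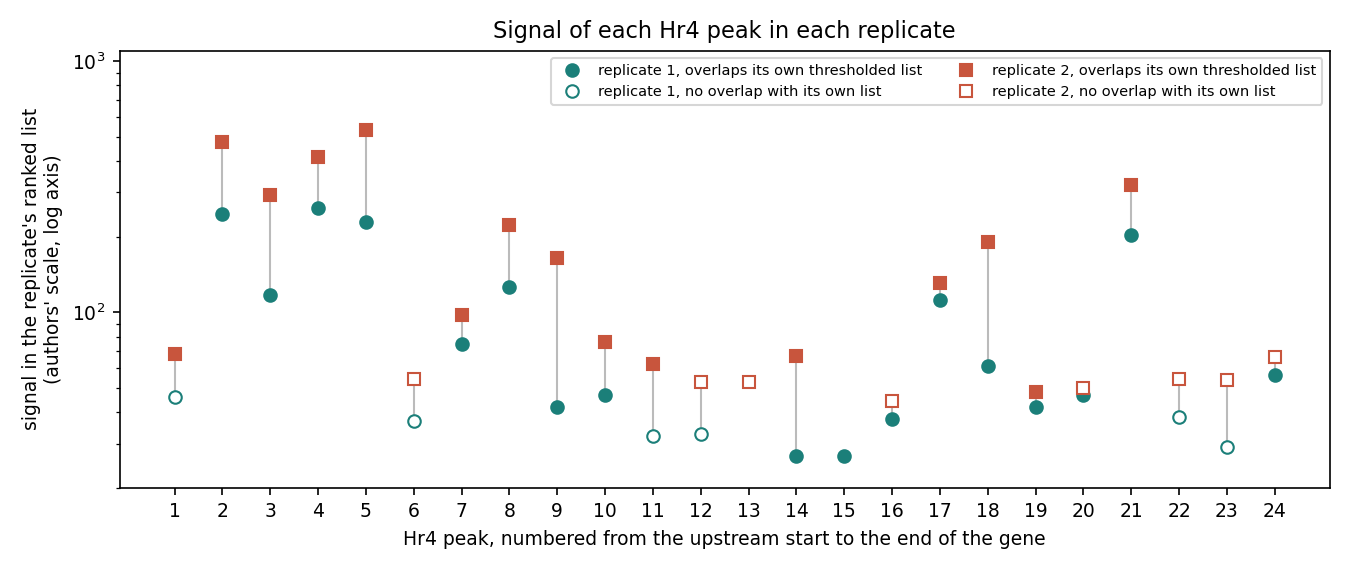
Signal of each of the 24 Hr4 peaks in the ranked list of replicate 1 (circles) and replicate 2 (squares), on a log axis; filled symbols mark peaks that overlap that replicate's own thresholded list. Replicate 2 is the higher at every peak with both values, as at 7038 of 7322 matched peaks of the whole list. Peaks 9 and 18 have the widest distance between the symbols.

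Each replicate's own thresholded list was read by the same rule. These lists come from the same libraries as the conservative list, so they are no separate support. Other genes were not counted in them. Replicate 1's list held 18 Hr4 peaks in 17 regions out of 4471 peaks in all, and replicate 2's held 17 in 17 regions out of 7044. In each, 1 peak overlapped no Hr4 peak of the conservative list. In replicate 1 it was a summit at position 1968569 with a signal of 38.7. In replicate 2 it was a summit at 1966165 with a signal of 88.6. The like share over each whole list is not given here. The other thresholded list of the series held 22 peaks in 19 regions, of which 1, at position 1966204 with a signal of 92.4, overlapped none. Peaks 12, 13, 16, 23 and 24 had no overlap in that list. A stricter limit on the conservative list, a global IDR of 0.001 or below, left 13 Hr4 peaks in 13 regions, 1 of them at a promoter. The shares of all peaks that overlap the other list, or that meet the stricter limit, are not given here. These counts therefore do not set Hr4 apart from the whole list.

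The narrower Hr4 peaks had the higher signals. Of the 24, 8 (33.3%) were narrower than 396 bp, the width of most peaks of the list, against 19.9% of all peaks. These 8 (peaks 2, 3, 4, 5, 8, 17, 18 and 21) were 147 to 338 bp wide with signals of 248 to 775 (median 463). All 8 overlapped both own lists, as did nearly all narrower peaks of the whole list (97.9% overlapped replicate 1's and 99.7% replicate 2's). The 16 of 396 bp had signals of 6.89 to 211 (median 94.7), so the signals of the 2 width groups did not overlap. The groups came close, with 211 at peak 9 (396 bp) and 248 at peak 17 (147 bp). Over all peaks the same order held for medians, 324 for the 1524 narrower peaks and 107 for the 6152 peaks of 396 bp or wider. Width and signal come from the same calls, so this too is a description.

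Base composition was not used to choose the peaks. GC content within 50 bp of the summit was 43.5% ± 11.8 (SD, n = 24) for Hr4 peaks, against 37.9% ± 11.6 (SD, n = 7676) for all peaks. Windows of the same length 500 bp to each side had 45.0% at Hr4 and 41.6% over all peaks. The 8 narrow Hr4 peaks had 35.0% ± 8.85 (SD) and 7 of 8 were below their flanks, against 82.1% of all narrower peaks. The 16 others had 47.8% ± 10.9 (SD) and 4 of 16 were below, against 55.3% of all peaks of 396 bp or wider. Peak 21 was the exception among the narrow ones, at 51.5% with 37.6% in its flanks. Peak 7 was lowest of all with 20.8%, and peak 22 highest with 63.4%. The 5 peaks in neither own list had 48.5% to 63.4% GC. Over all peaks, the narrower ones had 32.1% and the rest 39.3%. Peaks of 1 gene share its local sequence, so no test was made of the difference.

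**Figure D3:**
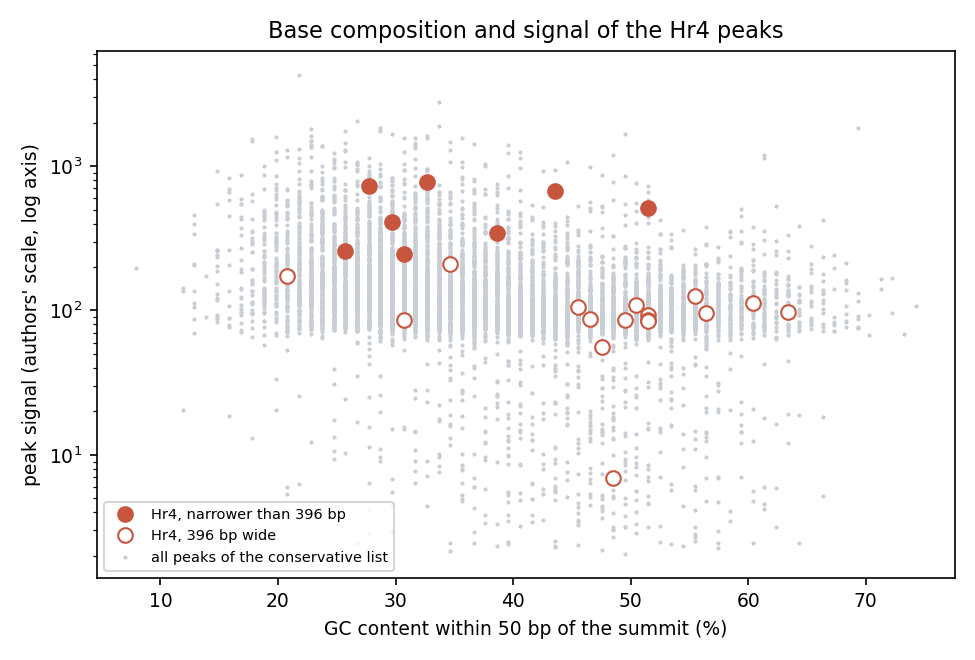
Peak signal (authors' scale, log axis) against GC content within 50 bp of the summit (%), for Hr4 peaks narrower than 396 bp (filled), Hr4 peaks of 396 bp (open) and all 7676 peaks (grey). The filled points lie between 248 and 775 and, save peaks 4 and 21, under 40% GC, while most open points lie near a signal of 100 and above 45% GC.

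Against the whole list, the Hr4 peaks were ordinary in their middle and strong at their top. Their median signal was 110.4, against 121.5 over all peaks, and 11 of 24 were above that median. Of the 24, 9 were above the upper quartile of all peaks (191) and 6 above their 90th percentile (329.7), but 0 were among the 100 strongest. Spearman's rho between signal and GC content was -0.45 over the 24 Hr4 peaks and -0.36 over all 7676, across peaks and without a test.

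By number of separate regions, Hr4 shared rank 5 among 13945 protein-coding genes, of which 28.8% had any region in the body or 1 kb upstream. Of all genes, 6 had at least 22 regions. Long genes have more room for peaks: among 310 genes within 1.5 times the length of Hr4 the median was 2 regions, the highest 28, and 4 genes, Hr4 included, had at least 22. Hr4 had 3.28 regions per 10 kb, against 2.44 at Eip75B, 3.57 at Eip74EF and 3.50 at sbb, loci of like or larger size.

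**Figure D4:**
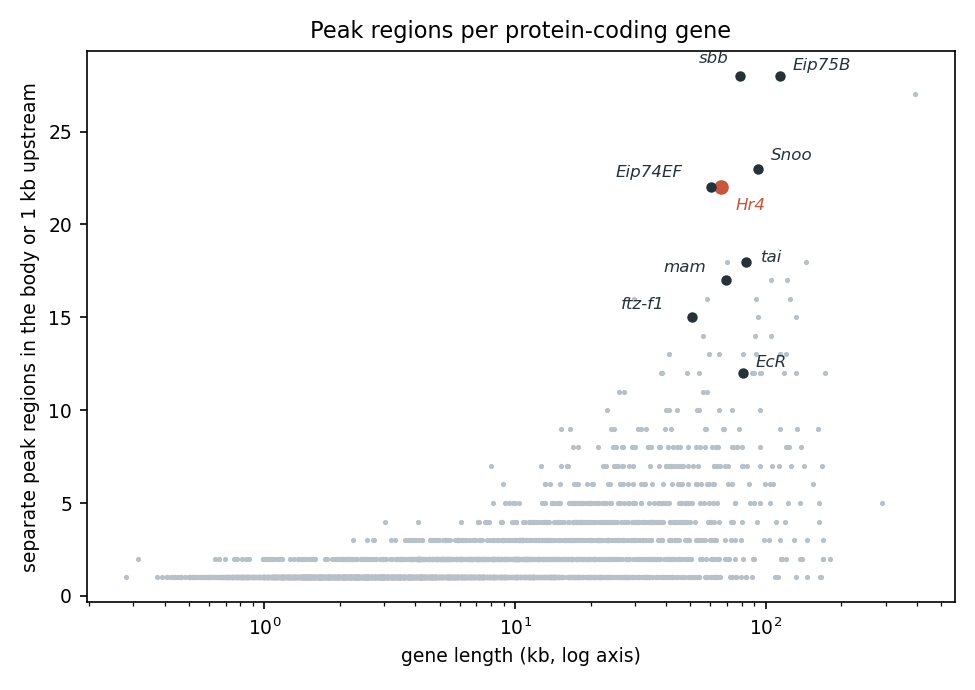
Number of separate regions per gene, with 1 kb before the start included (vertical axis), against gene length (kb, log axis) for every protein-coding gene with at least 1 region, with Hr4 in red and genes of the text in black. Hr4 stands at 22 regions beside Eip74EF, with Snoo at 23 and Eip75B and sbb at 28.

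The 5 genes most like Hr4 were found by distance over 4 measures (gene length, number of regions, share of promoter summits and median signal), among 288 genes with at least 5 regions. Nearest was Eip74EF (distance 0.352), an ecdysone-induced gene for an ETS-domain transcription factor, with 22 regions and a median signal of 120.7. Then came Snoo (0.569), a Ski and Sno family gene that acts in TGF-β type signalling, and mam (0.995), mastermind, the coactivator of Notch. Eip75B (1.05), whose product is a heme-binding nuclear receptor, and sbb (1.29), which encodes the nuclear protein scribbler, completed the set. Likeness in these measures says nothing of shared control.

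The highest signal was 775 at Hr4, against 572 at Eip75B, 287 at Eip74EF, 556 at sbb, 479.9 at Snoo and 736 at mam. In the whole list the strongest Hr4 peak ranked 129. Narrow peaks numbered 8 of 24 at Hr4, against 5 of 30 at Eip75B, 1 of 24 at Eip74EF and 7 of 29 at sbb. Summits within 500 bp of the gene's own starts numbered 2 at Hr4, 4 at Eip75B, 2 at Eip74EF and 1 at sbb. Hr4 is on the X chromosome and the others are on autosomes, and the copies of X per pupa are unknown because sex was not collected.

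Within the family, 15 of the 20 fly nuclear receptor genes other than Hr4 (75%) had a region, against 28.8% of all protein-coding genes. Of the 20, 13 (65%) had a summit within 500 bp of a start, against 21.5% of all. The shares over all genes are not matched for gene length. Among the 310 genes within 1.5 times the length of Hr4, 212 had a region. Those genes are matched to Hr4 and not to the family, whose lengths run from 1270 bp at Hr83 to 113744 bp at Eip75B. Whether the family differs from genes of like length was not tested. Hr4 had the most regions after Eip75B, which had 28. Next were ftz-f1, the competence factor of the prepupa, with 15, EcR, the ecdysone receptor, with 12, Eip78C with 10 and Hr3, an activator of ftz-f1, with 9. usp, the partner of EcR, lies 30842 bp past the end of Hr4 and had 1 region with a signal of 83.9. The gene Actn begins at the same position on the same strand, so that region may not belong to usp alone. Hr51, Hr83, tll, dsf and kni had 0 regions. Promoter signals were 112 at Hr4, against 486 at Eip75B, 170.2 at EcR, 163 at Hr3 and 141 at ftz-f1.

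Across the ecdysone cascade, 18 of the 31 listed genes other than Hr4 (58.1%) had a region, against 28.8% of all protein-coding genes. Of the 31, 15 (48.4%) had a summit within 500 bp of a start, against 21.5% of all. Here too the shares over all genes are not matched for gene length. Apart from the nuclear receptors, Eip74EF had 22 regions, tai, a coactivator of EcR, had 18, gce, a juvenile hormone receptor gene, had 8, and Eip93F, a late factor of metamorphosis, had 7. E23, an ABC transporter gene, had 5 and a promoter signal of 832. Eip63F-1 and chinmo had 3 each, and br, the early gene Broad, had 2, with no summit within 500 bp of a start. Kr-h1, a juvenile hormone response gene, and Cyp18a1, which clears ecdysone, had 1 each. The other 13 (41.9%) had 0 regions, against 71.2% of all protein-coding genes. They were Met, the other juvenile hormone receptor gene, Eip71CD (MsrA in this annotation), Cyp6t3, tor and its ligand gene Ptth, and nvd, spo, spok, sro, phantom (phtm), dib, sad and shd, enzyme genes for making ecdysone and its active form. Of these, nvd starts at position 24324866 of arm 3L, past the end of the last peak on that arm at 22879084. Apart from nvd and spok, none of the 13 is longer than shd, at 7748 bp. The cascade list was drawn up with earlier results of these data known.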

How the data were processed

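ChIP-seq peak lists in dm6 from 2 replicate libraries were used as deposited. No aligner, peak caller or version is named in the labels or file headers used here. The peak signal is the authors' deposited value, on an unstated scale, so it served only to describe and rank peaks. The −log10 q value and −log10 global IDR are the authors' deposited values as well; the conservative list stops at an IDR of 0.01. The deposited notes list, for the thresholded lists, 1 more input that they do not describe. Read depth is unknown, so no interval that needs it is given.

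Summits (start plus offset) were placed on Ensembl release 115 transcripts. Peaks in 1 gene that overlapped were merged into regions. For replicate signals, each ranked list of a single replicate was searched within 200 bp for the closest summit. Peaks were shared on an overlap of at least 1 bp. All peaks or all protein-coding genes, treated alike, are the background. The reference arm lengths equalled those of dm6. The code was tested on simulated peaks, with 500 of 500 planted gene counts recovered. Python 3.11.15, numpy 2.4.6, pandas 2.3.3 and matplotlib 3.10.9 were used.

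Genes named are Hr4, its neighbours, members of the nuclear receptor and ecdysone cascade lists, Eip75B, Eip74EF, sbb and the 5 genes most like Hr4. The peaks, gene lists and words searched were chosen with earlier results of these data known. The symbol phm of the list is phtm in this annotation.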

Additional observations from a re-analysis of the deposited data

How the results depend on the processing

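The number of Hr4 peaks was 22 in the other thresholded list, 23 for the gene body alone and 25 with 5 kb upstream, against 24 in the conservative list. It was 18 in replicate 1's own thresholded list and 17 in replicate 2's. Peaks were not called again with a replicate left out. Separate regions numbered 17 in both replicates' own lists. Keeping only peaks with a global IDR of 0.001 or below left 13 peaks in 13 regions, 1 of them at a promoter, with a median signal of 256.7. The share of all peaks within that limit is not given here, so the count does not set Hr4 apart. There was 1 promoter peak in the other list, 1 in replicate 2's own list and 0 in replicate 1's own list. The median signal was 130.8 in replicate 2's own list and 58.75 in replicate 1's own list, each on that list's own scale. The cause of these differences was not tested. With 100 bp on each side of the summit the GC content at Hr4 was 48.2%, against 39.4% over all peaks. Of 44 alternatives, 29 stayed within the limits used (1.5 times for counts and 10% for values). In that wider window 14 of 24 Hr4 summits held a listed word, against 75.8% of all peaks. Of single words there, GAGAGAG stood at 3 Hr4 summits (7.13% of all peaks), CACACAC at 4 (10.1%) and GCCAT at 11 (26.6%). TATAAA stood at 2 (29.1%), ACAGTG at 1 (16.1%) and AGATAA at 3 (12.1%). AGGTCA stood at 1 (3.61%) and CAGCTG at 1 (8.75%), while TATCGATA (1.41%) and CAGGTA (3.54%) stood at 0. No paired analysis was possible because the series has 1 group. The unknown depth and the lack of an untagged sample limit every value.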
